A study of Mus musculus with 16 samples.

Results

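The circadian clock genes of the mouse pancreas are described here: 10 genes of the 15156 in the deposited table of normalized gene counts, taken by gene symbol. They are Arntl, Clock and Npas2, Cry1, Nr1d1, Nr1d2, Per1, Per2, Per3 and Dbp, and all 10 were found and passed the filter on low values. They were chosen by their measured levels in these same libraries, so their levels, differences and correlations are given as a description, with no p for any of them. The fit over all genes also gives counts of members past a threshold, which are printed beside the share of all tested genes past it, with nothing read from them in any comparison. Total RNA came from the whole pancreas of 16 adult mice, 6 to 10 weeks old, with 4 animals in each of 4 genotypes. The DMC group was Daxx fl/fl, Men1 fl/fl and transgenic for Pdx1-Cre (Pdx1-CreTg). The MC group was Men1 fl/fl with Pdx1-CreTg, the DC group Daxx fl/fl with Pdx1-CreTg, and the WT group wild type, with no Cre named. All 4 groups had been given caerulein, a cholecystokinin analogue that injures acinar cells, at 50 ug/kg in 4 hourly intraperitoneal injections on each of 3 days a week for 3 weeks. Tissue was taken 5 days after the last treatment. The Pdx1 promoter drives Cre in the pancreatic epithelium, while stromal, immune and fat cells in the sampled tissue are not its target. The labels give no hour of collection and no light cycle, so hour of collection and genotype cannot be told apart.

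The clock of mammalian cells is a feedback loop of transcription. BMAL1, the product of Arntl, pairs with CLOCK or NPAS2 and activates genes through the E-box, among them the Per and Cry genes, the Nr1d genes and Dbp. PER and CRY proteins then inhibit the pair, and REV-ERB alpha and beta, the products of Nr1d1 and Nr1d2, repress Arntl, Npas2 and Clock through a second element, bound in turn by the ROR receptors. Arntl transcripts therefore peak at the opposite time of day to those of Nr1d1 and Dbp in most mouse tissues, the pancreas included, where the clock is known to take part in the daily rhythm of enzyme and insulin secretion.

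The promoters below are examples of each of these elements near the start of a clock gene, shown for the motifs they hold. RefSeq windows of 300 bases on GRCm38.p6, from 250 before to 50 after each annotated start, were found for 9 of the 10 members, in 13 windows, and the table has no entry for Per2. Each window is written 5′ to 3′ on the strand of its gene, and capitals mark the motif matches. Arntl on the plus strand at chr7:113207261-113207560 holds the REV-ERB and ROR element TAGGTCA. Per1 on the plus strand at chr11:69098699-69098998 holds the E-box CACGTG and, read on the other strand, the shorter element AGGTCA. Cry1 on the minus strand at chr10:85185005-85185304 holds 1 E-box, and Per3 on the minus strand at chr4:151044616-151044915 holds 2 copies of the D-box TTANGTAA, the element bound by DBP. The windows of Npas2, Nr1d1 and Dbp held none of the motifs. Ciart, a clock repressor that is not among the 10, is shown for its 3 E-boxes, on the minus strand at chr3:95882179-95882478.
Arntl: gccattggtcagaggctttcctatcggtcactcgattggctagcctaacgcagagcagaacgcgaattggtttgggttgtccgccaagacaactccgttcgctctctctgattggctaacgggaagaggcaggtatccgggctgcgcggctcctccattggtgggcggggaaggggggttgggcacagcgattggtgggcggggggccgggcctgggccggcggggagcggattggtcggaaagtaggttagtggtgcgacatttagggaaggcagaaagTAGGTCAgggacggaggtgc
Per1: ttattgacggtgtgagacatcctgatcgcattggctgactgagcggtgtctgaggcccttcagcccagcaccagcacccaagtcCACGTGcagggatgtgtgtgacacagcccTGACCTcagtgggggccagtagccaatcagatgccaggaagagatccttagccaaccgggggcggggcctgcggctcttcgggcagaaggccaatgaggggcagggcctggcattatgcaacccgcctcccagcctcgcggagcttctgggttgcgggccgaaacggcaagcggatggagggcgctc
Cry1: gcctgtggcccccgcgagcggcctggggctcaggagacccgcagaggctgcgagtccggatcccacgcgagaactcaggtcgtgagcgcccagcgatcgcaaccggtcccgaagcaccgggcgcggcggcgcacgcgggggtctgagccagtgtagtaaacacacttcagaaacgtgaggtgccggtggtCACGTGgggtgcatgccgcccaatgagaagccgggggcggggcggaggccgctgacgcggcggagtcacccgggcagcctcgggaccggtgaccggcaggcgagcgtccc
Per3: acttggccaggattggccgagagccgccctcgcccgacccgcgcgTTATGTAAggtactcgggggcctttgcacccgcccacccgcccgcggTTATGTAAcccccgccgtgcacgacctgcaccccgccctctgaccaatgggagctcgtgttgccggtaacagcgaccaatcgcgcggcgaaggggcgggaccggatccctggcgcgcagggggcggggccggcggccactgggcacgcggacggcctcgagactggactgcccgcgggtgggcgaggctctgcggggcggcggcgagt
Ciart: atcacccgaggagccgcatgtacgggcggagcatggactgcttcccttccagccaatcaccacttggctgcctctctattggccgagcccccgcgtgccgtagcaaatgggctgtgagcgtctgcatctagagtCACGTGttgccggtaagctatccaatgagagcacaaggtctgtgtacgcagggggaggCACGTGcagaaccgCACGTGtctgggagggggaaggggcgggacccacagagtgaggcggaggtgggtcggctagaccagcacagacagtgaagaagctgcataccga
Both strands were searched, and TAGGTCA includes AGGTCA, so a match to the longer element is also a match to the shorter. The E-box was found in 2 of the 13 member windows and in 7.15% of all 32851 windows. AGGTCA was found in 4 of the 13 (Arntl, Clock, Nr1d2 and Per1) and in 16.3% of all windows. TAGGTCA was in 1 member window, that of Arntl, and in 2.61% of all windows, and the D-box was in 1, that of Per3, and in 2.32% of all. A match is a run of letters and not a measured binding site, and a window without one says only that these letters are not in it.

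Sequencing depth was 13481063 to 23728309 reads per library, counted over the genes in the table. Between 33.5% and 51.8% of a library's reads fell on its 10 top genes. Men1 averaged 168 normalized counts in DMC, 132 in MC, 482 in DC and 368 in WT pancreas, and it fell in MC against WT (log2 difference -1.47, limma adjusted p = 6.159e-05) and in DMC against WT (log2 difference -1.12, limma adjusted p = 0.0007131). Daxx averaged 182 ± 30.4 in DMC, 246 ± 26.1 in MC, 223 ± 15.6 in DC and 263 ± 64.97 in WT (SD, n = 4 each) and did not pass the test in DC against WT (limma adjusted p = 0.683), so the labels of the DC libraries are not checked by it. In DMC against WT limma called 1 of these 2 genes, Men1, so Daxx did not pass there either. Daxx loss below is the name of a genotype. WT libraries 2 and 3 held more lymphoid transcripts than the others, with summed levels of 2118 and 3790 normalized counts for 7 B and T cell genes, against 108 to 1298 in the other 14.

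Arntl, which encodes BMAL1, was high in every MC library and low in every DC library. It lies on chromosome 7 at 113207465 to 113314126 (GRCm38, plus strand). Its 4 libraries read 241, 139, 549 and 472 normalized counts in DMC, 496, 618, 487 and 410 in MC, 185, 116, 112 and 89.1 in DC, and 407, 373, 205 and 592 in WT pancreas. The MC libraries all lay above the DC libraries, the DC libraries all lay below the WT libraries, and the DMC libraries spread from near the DC to near the MC level. Means were 350 ± 192 in DMC, 503 ± 85.8 in MC, 125 ± 41.3 in DC and 394 ± 159 in WT (SD, n = 4 each). The log2 difference was 2.03 ± 0.38 for MC against DC and -1.60 ± 0.38 for DC against WT (± SE throughout for log2 differences, from limma). In whole pancreas, a difference in level can come from fewer cells of a type or from less RNA per cell, and these cannot be told apart.

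Npas2, a partner of BMAL1 that can stand in for CLOCK, followed Arntl library by library. On chromosome 1 at 39193731 to 39363236, it had 34.6, 10.1, 92.7 and 84.1 normalized counts in DMC, 93.1, 117, 89.95 and 79.1 in MC, 34.9, 27.4, 25.1 and 22.0 in DC, and 51.3, 32.5, 24.5 and 93.3 in WT. The MC libraries lay above all DC libraries, while DC and WT overlapped. Its log2 difference was 1.76 ± 0.54 for MC against DC and -0.70 ± 0.54 for DC against WT. Across the 16 libraries Npas2 and Arntl had a Pearson r of 0.88 on log2 values, and 0.95 after each library was centred on the mean of its genotype.

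Clock, which encodes the other partner and is known to vary little over the day in many tissues, was nearly level. On chromosome 5 at 76209868 to 76304792, it read 1727, 1482, 2067 and 1741 normalized counts in DMC, 1872, 1832, 1943 and 1674 in MC, 1340, 1890, 1376 and 1808 in DC, and 2293, 1880, 1598 and 2439 in WT. Every pair of groups overlapped, and its highest library was 1.82 times its lowest, the smallest such ratio among the 10 genes. For MC against DC its log2 difference was 0.21 ± 0.15.

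Cry1, a repressor of the BMAL1 pair with a later peak than the Per genes in most tissues, also overlapped between all pairs of groups. On chromosome 10 at 85131700 to 85185064, it had 109, 122, 255 and 166 normalized counts in DMC, 278, 265, 135 and 163 in MC, 88.1, 156, 128 and 175 in DC, and 97.2, 114, 139 and 238 in WT. Its log2 difference for MC against DC was 0.60 ± 0.33, with the sign of the activators and not that of the other repressors.

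**Figure D1:**
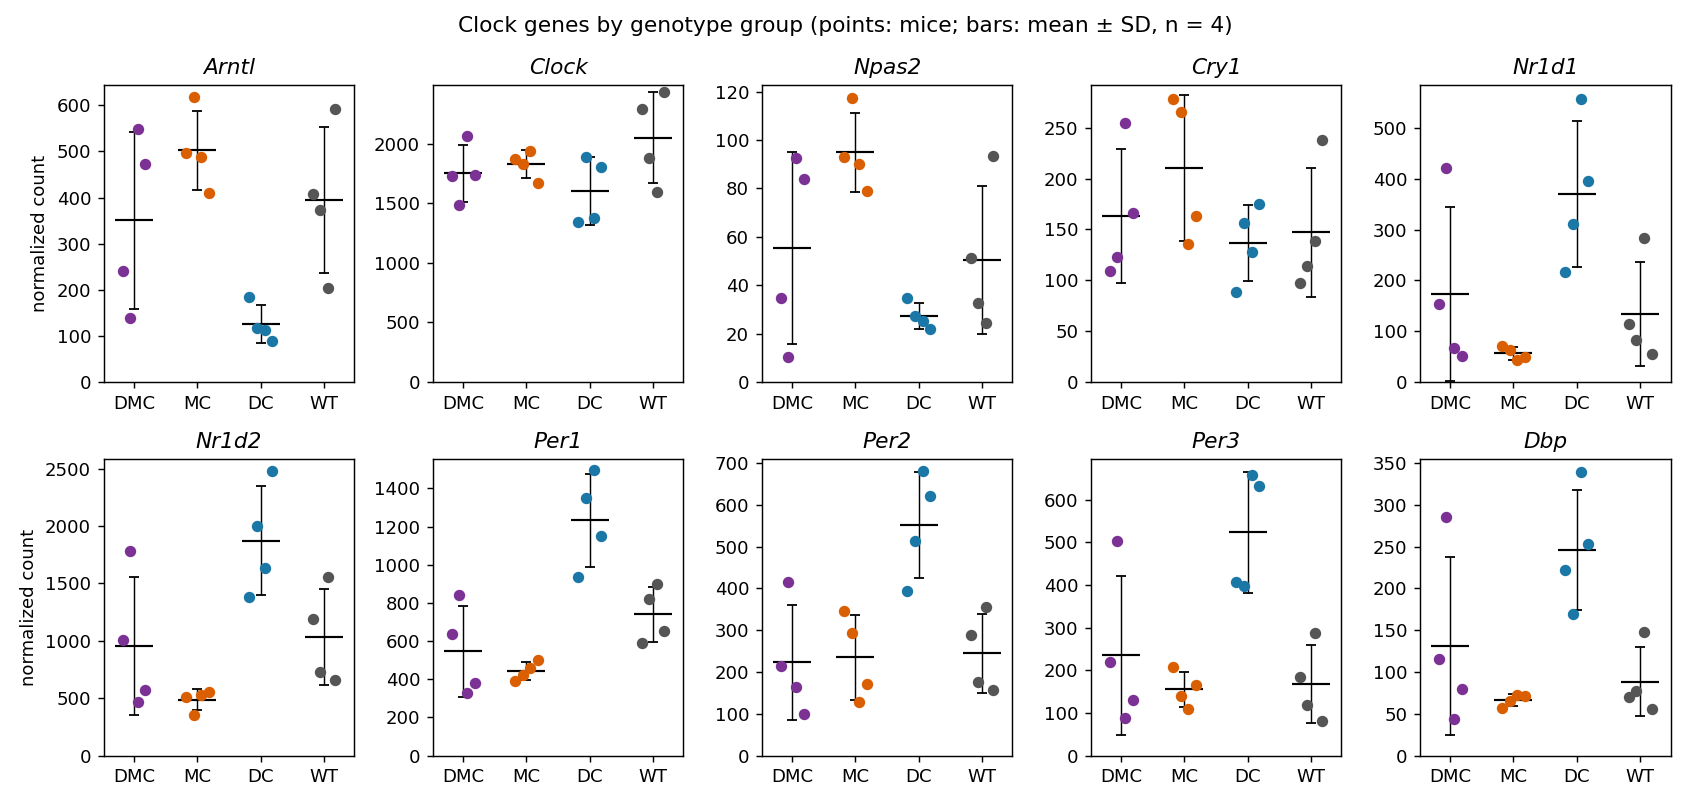
Normalized counts of the 10 clock genes in each of the 16 libraries, by genotype in the order DMC, MC, DC and WT, with points for libraries and bars for the mean and SD of 4. The group means of Arntl and Npas2 were lowest in DC, those of the Nr1d, Per and Dbp genes were highest in DC, and Clock and Cry1 overlapped between all groups.

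The Nr1d genes, whose products repress Arntl, ran the other way. Nr1d1 (REV-ERB alpha), on chromosome 11 at 98767932 to 98775333, had 153, 422, 66.6 and 51.2 normalized counts in DMC, 71.1, 61.9, 42.4 and 50.1 in MC, 217, 312, 557 and 395 in DC, and 113, 82.3, 283 and 54.9 in WT. All 4 MC libraries lay below all 4 DC libraries, at means of 56.4 ± 12.7 in MC and 370.4 ± 144 in DC (SD, n = 4 each). In MC against DC its log2 difference was -2.64 ± 0.57, the largest in size among the 10 genes, and 1.66 ± 0.57 for DC against WT, where WT library 3 reached into the DC range. Nr1d1 shares 263 exonic bases, 8.55% of its own, with Thra on the opposite strand. The strand setting of the read counting is not given in the sources used here, so reads in that stretch are uncertain.

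Nr1d2 (REV-ERB beta), on chromosome 14 at 18204054 to 18239127, was the more abundant of the pair per length of transcript in all 16 libraries. It had 1005, 1780, 465 and 571 normalized counts in DMC, 507, 357, 527 and 558 in MC, 1380, 1997, 1638 and 2481 in DC, and 1193, 726, 1557 and 663 in WT. MC and DC did not overlap, and WT library 3 again lay within the DC range. Nr1d2 had a log2 difference of -1.93 ± 0.36 for MC against DC and 0.91 ± 0.36 for DC against WT.

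Per1, a repressor that also responds directly to glucocorticoids, was the member with the largest share of its variance between genotypes, 74.2% on the log2 scale, where the median of all tested genes was 24.6%. On chromosome 11 at 69095217 to 69109960, it had 637, 841, 328 and 383 normalized counts in DMC, 390, 424, 458 and 499.8 in MC, 936, 1347, 1496 and 1148 in DC, and 590.5, 818, 900 and 652 in WT. The DC libraries lay above all libraries of the other 3 groups, and the MC libraries below all WT libraries. Per1 had a log2 difference of -1.25 ± 0.25 for DMC against DC, -1.46 ± 0.25 for MC against DC and 0.73 ± 0.25 for DC against WT.

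Per2 and Per3 encode the other PERIOD proteins. Per2, on chromosome 1 at 91415982 to 91459324, had 214, 415, 163 and 98.7 normalized counts in DMC, 346, 294, 129 and 171 in MC, 393, 513, 680.2 and 620 in DC, and 288, 176, 355 and 158 in WT. The DC libraries lay above all MC and WT libraries, and DMC library 2 lay within the DC range. Per3, on chromosome 4 at 151003652 to 151044665, had 219, 502, 87.5 and 132 normalized counts in DMC, 207, 140, 110 and 166 in MC, 406, 397, 659 and 633 in DC, and 184, 118, 288 and 80.2 in WT. The pattern was that of Per2: DC above all MC and WT libraries, with DMC library 2 inside its range. The log2 differences for MC against DC were -1.31 ± 0.40 for Per2 and -1.74 ± 0.45 for Per3. For MC against WT they were -0.09 ± 0.40 and 0.02 ± 0.45, close to 0 for both.

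Dbp encodes a PAR-bZIP transcription factor that carries the rhythm to output genes through the D-box. On chromosome 7 at 45705088 to 45710203, it had 116, 286, 44.4 and 79.5 normalized counts in DMC, 57.6, 65.1, 72.8 and 71.1 in MC, 222, 169, 340 and 253 in DC, and 70.7, 77.8, 148 and 56.0 in WT. The DC libraries lay above all MC and WT libraries, and the MC libraries were close together, at 66.6 ± 6.87, against 246 ± 71.4 in DC (SD, n = 4 each). The log2 difference was -1.83 ± 0.43 for MC against DC and 1.52 ± 0.43 for DC against WT. Dbp shares 539 exonic bases, 18.01% of its own, with Sphk2 on the opposite strand, and reads there are uncertain in the same way as for Nr1d1.

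Per kilobase of exon, averaged over the groups, the order of levels was Nr1d2 (201 normalized counts per kilobase), Clock (132), Per1 (131.5), Nr1d1 (59.6), Per2 (53.5), Cry1 (49.2), Arntl (45.6), Dbp (44.4), Per3 (28.1) and Npas2 (11.9). All 9 neighbouring pairs in this order overlapped in their ranges over libraries, so the order of neighbours is not firm. Some pairs that do not follow each other kept their order in every library. Clock stood above Npas2 per kilobase in all 16, by 5.44 to 51.0 times, and above Arntl in all 16, by 1.63 to 11.1 times. Per1 stood above Per2 in all 16, by 1.17 to 4.83 times, and above Per3 by 2.86 to 13.9 times.

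All members but Clock varied more within a genotype than the median tested gene. The SD within groups on the log2 scale was 0.91 for Nr1d1 and 0.84 for Npas2, at percentiles 92.6 and 91.2 of all tested genes, where the median gene had 0.28. Per3, Dbp, Per2, Arntl and Nr1d2 lay at percentiles 87.7, 86.0, 84.4, 83.2 and 81.5, Cry1 at 77.6 and Per1 at 65.7. Clock, with an SD of 0.22, lay at 33.6.

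Activators and the E-box genes other than Cry1 ran opposite to each other over the 16 libraries, and also when all libraries were centred on genotype and pooled. An activator level was set as the mean log2 of Arntl, Clock and Npas2, and an E-box level as the mean log2 of Nr1d1, Nr1d2, Per1, Per2, Per3 and Dbp, with Cry1 kept apart. Cry1 is also a known E-box target, and its sign was that of the activators, so the values below hold for the E-box level without it. The name of this level follows the known loop and not the motif matches, since among the members only Cry1 and Per1 windows held CACGTG. Over the 16 libraries the 2 levels had a Pearson r of -0.951 and a Spearman rho of -0.909. After centring on genotype means r was -0.936, and within the 12 libraries other than DC it was -0.935. Without DC library 4 and DMC library 2, the 2 farthest from the median activator level, r was -0.943. The points share their genotypes and scaling, the members were chosen with this pattern in view, and no p is given.

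With Cry1 apart, all 18 pairs of an activator and an E-box gene had a negative correlation, from -0.948 to -0.402, and the pair nearest to opposition was Arntl with Nr1d1. All 15 pairs among the 6 E-box genes other than Cry1 were positive, from 0.752 to 0.939. The 3 pairs among activators ran from 0.547 to 0.882, with the lower values for pairs with Clock. Cry1 was positive with the 3 activators, at 0.431 to 0.602 with a median of 0.461, and negative with the 6 E-box genes, at -0.555 to -0.167 with a median of -0.467, the value nearest 0 being that with Per2. Centred on genotype, Cry1 and Per2 had an r of 0.033. As background, Cry1 is known to peak after the Per genes and before Arntl in rhythmic mouse tissue.

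**Figure D2:**
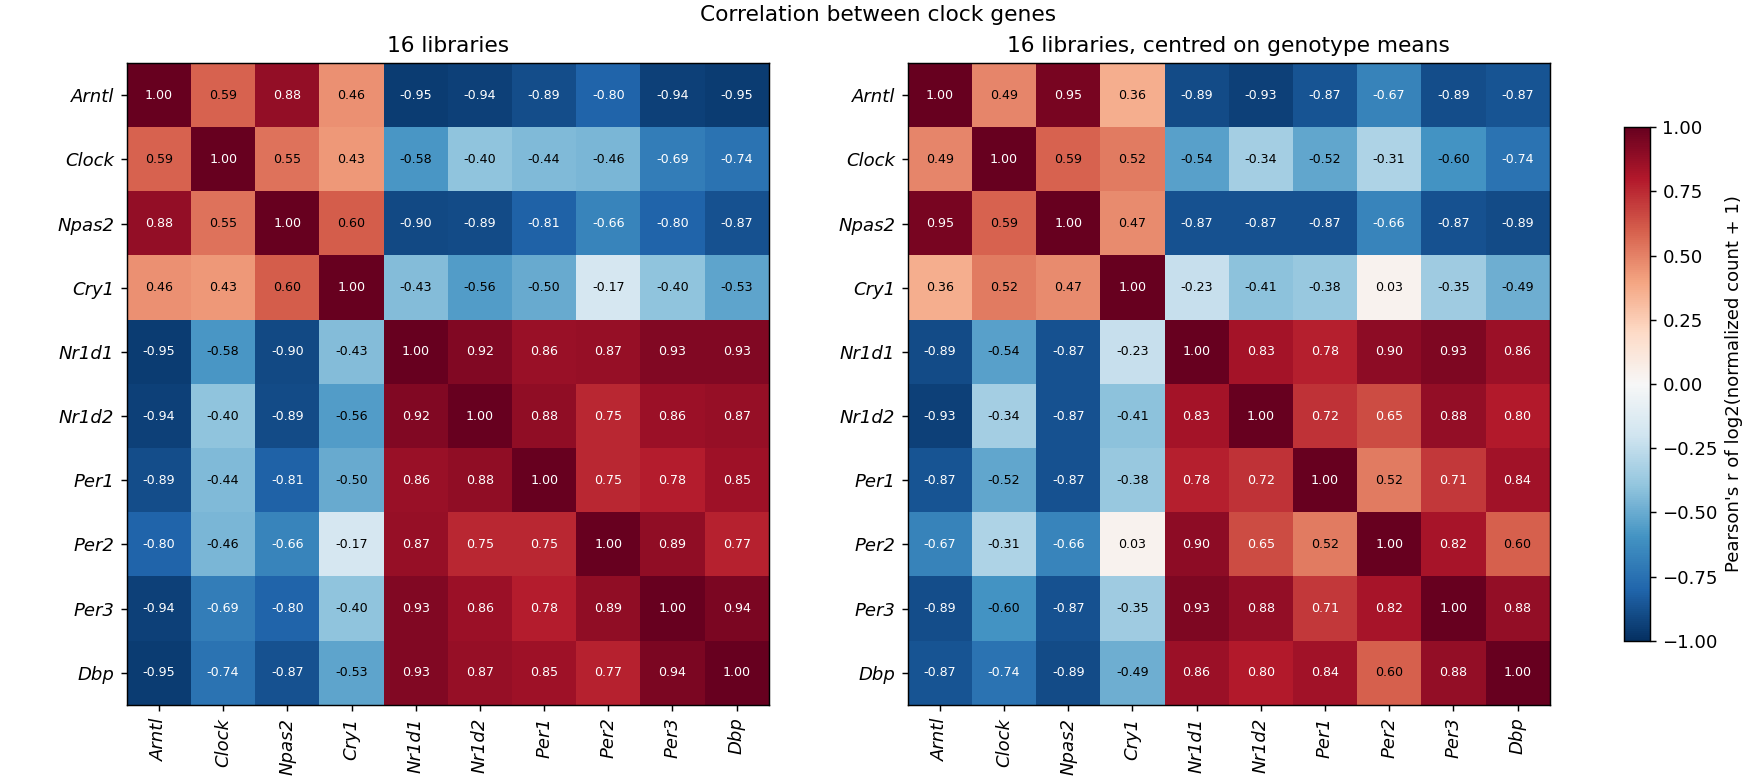
Pearson correlation between each pair of clock genes over the 16 libraries on log2 values, as measured and after centring each library on the mean of its genotype. The block of 6 E-box genes is positive, its 18 pairs with Arntl, Npas2 and Clock are negative in both panels, and Cry1 is positive with the activators in both panels and ranges from -0.555 to -0.167 with the E-box genes in the panel of measured values.

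The activator level less the E-box level summarises each library in 1 number on the log2 scale. It was -0.22, -2.13, 1.78 and 1.44 in the DMC libraries, 1.17, 1.57, 1.56 and 1.11 in MC, -1.16, -1.59, -2.27 and -2.16 in DC, and 0.49, 0.46, -1.07 and 1.67 in WT. All MC libraries were positive and all DC libraries negative, while DMC and WT held both signs. Group means were 0.22 ± 1.79 in DMC, 1.35 ± 0.25 in MC, -1.80 ± 0.52 in DC and 0.39 ± 1.13 in WT (SD, n = 4 each). The 4 MC animals thus differed among themselves by less than a log2 unit, while DMC libraries 2 and 3, of the same genotype, lay near opposite ends of the range over all libraries.

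The ratio of Arntl to Nr1d1 normalized counts within a library does not depend on how libraries are scaled. It is not corrected for the lengths of the 2 transcripts, so it is read across libraries and not as which gene is higher. It was 1.58, 0.330, 8.24 and 9.23 in DMC, 6.98, 9.97, 11.5 and 8.19 in MC, 0.851, 0.372, 0.200 and 0.226 in DC, and 3.59, 4.54, 0.723 and 10.8 in WT. Every MC library had a higher ratio than every DC library. DMC library 2 and WT library 3 lay within the DC range, and DMC libraries 3 and 4 and WT library 4 within the MC range.

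**Figure D3:**
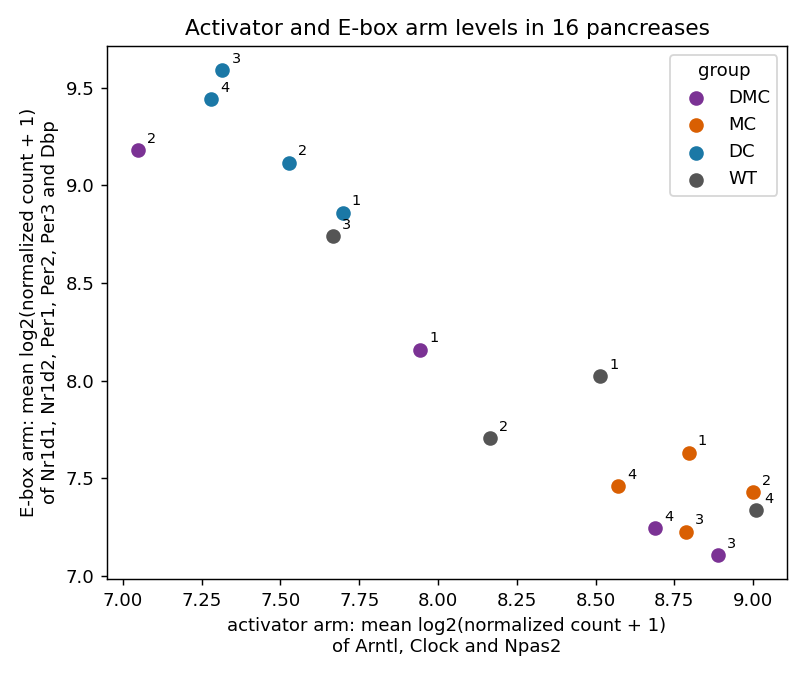
Activator level (x axis, mean log2 of Arntl, Clock and Npas2) against E-box level (y axis, mean log2 of Nr1d1, Nr1d2, Per1, Per2, Per3 and Dbp), 1 point per library, coloured by genotype and numbered by replicate. The libraries fall along a descending line (r = -0.951), with the DC points at high E-box level, the MC points at high activator level, and DMC and WT points spread along it.

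**Figure D4:**
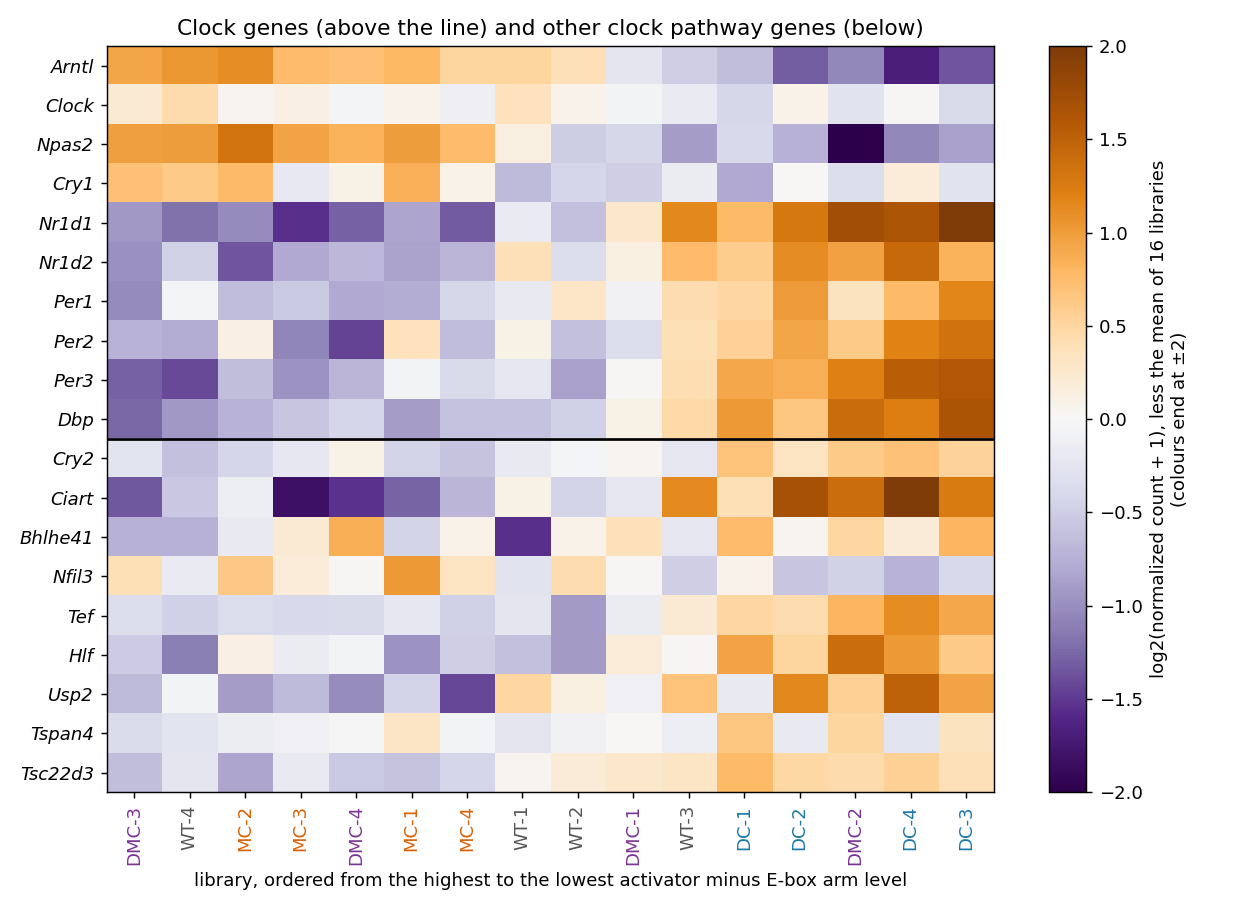
Level of the 10 clock genes (above the line) and 9 other clock pathway genes (below it) in each library, as log2(normalized count + 1) less the gene's mean over the 16 libraries, with libraries ordered from the highest to the lowest activator less E-box level. The 4 DC libraries and DMC library 2 stand at the end with high Nr1d, Per and Dbp and low Arntl, and the 4 MC libraries stand toward the other end among DMC libraries 3 and 4 and WT library 4.

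Men1 loss against Daxx loss, MC against DC, gave the widest separation of the clock genes. The difference in activator less E-box level was 3.15. Of the 10 members, 8 did not overlap between MC and DC: 2 were higher in MC, Arntl and Npas2, and 6 lower, the E-box genes other than Cry1. Of the 14220 tested genes 8.94% did not overlap, 4.65% higher and 4.29% lower. In the limma fit over all tested genes, 5 members passed an adjusted p of 0.05, 1 higher and 4 lower in MC, where 1.37% of all tested genes passed, 0.591% higher and 0.781% lower. An unadjusted p under 0.05 was reached by 8 members and 13.7% of all genes, edgeR called 4 members and 1.26% of all genes, and DESeq2 called 7 members and 3.52% of all genes. The members' median log2 difference was -1.38, and that of all tested genes 0.00. The count of 5 became 1 without DC library 2, without DC library 4 or without MC library 2, 2 without DC library 3, and 3 without MC library 1, 3 or 4.

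Daxx loss against wild type, DC against WT, had the same direction pattern as the preceding contrast turned round, and it shares the DC libraries with it. The difference in activator less E-box level was -2.18, and the DC and WT libraries did not overlap in it. The mean log2 of 6 fibroblast genes did not overlap either, at 11.04 to 12.14 in DC and 10.62 to 10.81 in WT, with summed levels of 28156 to 56313 normalized counts in DC and 19223 to 22746 in WT. Of the 6, all had an unadjusted p under 0.05, limma and edgeR called 0 and DESeq2 called 3, and their part in the clock gene differences was not tested. Per1, Per2, Per3 and Dbp were higher and Arntl lower in DC with no overlap, 5 of 10, where 5.49% of all tested genes did not overlap, 3.72% higher and 1.77% lower. In limma 0 members passed the adjusted threshold, where 0.0211% of all genes did, 8 had an unadjusted p under 0.05, where 11.7% did, edgeR called 0, where it called 0.0211% of all genes, and DESeq2 3, where it called 1.99%.

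Men1 loss against wild type, MC against WT, moved the difference in level by 0.97 with overlap between the groups, and by 0.48 without WT library 3. The fibroblast level was 10.93 to 11.49 in MC and 10.62 to 10.81 in WT, again without overlap, and its part was not tested. Nr1d2 and Per1 were lower in MC with no overlap, 2 of 10, where 7.38% of all tested genes did not overlap, 3.23% lower. Their log2 differences were -1.02 ± 0.36 and -0.73 ± 0.25. In limma 0 members passed, where 0.781% of all genes did, 2 had an unadjusted p under 0.05, where 12.7% did, and edgeR and DESeq2 called 0 members, against 0.781% and 2.75% of all genes.

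In DMC mice, floxed for both genes, the activator less E-box level ran from -2.13 to 1.78, across the wild type range of -1.07 to 1.67. For DMC against WT the difference in activator less E-box level was -0.17, and it ranged from -0.69 to 0.62 as each library was left out, so its sign rests on single animals: it was positive without DMC library 2 and without WT library 4. No member was without overlap, where 8.21% of all tested genes were. In limma 0 members passed, where 0.788% of all genes did, 0 had an unadjusted p under 0.05, where 12.5% did, and edgeR and DESeq2 called 0 members, against 0.717% and 2.33% of all genes.

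Daxx loss added to Men1 loss, DMC against MC, gave a difference in level of -1.13, from -1.65 to -0.35 as each library was left out, with the value nearest 0 without DMC library 2. Groups overlapped for all 10 members, where 4.00% of all tested genes did not overlap. In limma 0 members passed, where 0.00703% of all genes did, 2 had an unadjusted p under 0.05, where 5.57% did, and edgeR and DESeq2 called 0 members, against 0.00703% and 0.394% of all genes. Men1 loss added to Daxx loss, DMC against DC, gave a difference of 2.02. Per1 was lower in DMC with no overlap, 1 of 10, where 6.35% of all tested genes did not overlap, 2.80% lower. In limma 1 member passed, in the lower direction, where 0.534% of all genes passed, 0.267% lower. An unadjusted p under 0.05 was reached by 7 members and 13.2% of all genes, while edgeR called 0 members and 0.499% of all genes, and DESeq2 3 members and 2.43% of all genes. The limma count of 1 became 0 without DC library 2, 3 or 4 and without DMC library 3 or 4, and 3 without DMC library 2. For the interaction of both losses limma called 0 members, where 0% of all genes passed, 2 had an unadjusted p under 0.05, where 8.13% did, and edgeR and DESeq2 called 0 members, against 0% and 0.302% of all genes.

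The rest of the clock loop is a list of 14 genes, of which 13 were tested, and these were not among the 10 members. The list was drawn up with earlier results of these data known, so each p for its genes is only a description. In MC against DC limma called 0 of them higher and 1 lower, Cry2, beside 1.37% of all tested genes called and 0.781% called lower, and the list's median log2 difference was -0.19. Cry2, the second cryptochrome repressor, had 252, 372, 201 and 259 normalized counts in DMC, 178, 179, 209 and 161 in MC, 387, 301, 346 and 394 in DC, and 214, 234, 206 and 158 in WT. All MC libraries lay below all DC libraries. Cry2 fell by 0.97 ± 0.17 on the log2 scale in MC against DC (limma adjusted p = 0.0144), a call kept in 28 of 29 alternative settings and lost without DC library 4 (adjusted p = 0.0554).

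The members of that list closest to the loop of Arntl and the Nr1d genes did not pass the test. Ciart, whose promoter is shown above, had 26.4, 83.2, 11.8 and 10.1 normalized counts in DMC, 12.3, 28.6, 8.09 and 18.9 in MC, 41.6, 102, 76.3 and 134 in DC, and 33.6, 22.6, 69.3 and 20.9 in WT. MC lay below DC in every library, with a log2 difference of -2.34 ± 0.60 and a limma adjusted p of 0.0709. Nfil3, a repressor of D-box genes, had 186, 133, 243 and 186 in DMC, 376, 286, 207 and 229 in MC, 193, 123, 139 and 111 in DC, and 152, 247, 130 and 165 in WT. MC lay above DC in every library, with a log2 difference of 0.94 ± 0.24 and a limma adjusted p of 0.0751. Nfil3 had entered an earlier clock score and was listed with earlier results known, so this p is only a description. Nfil3 is known as a target of REV-ERB, like Arntl, and the sign of its difference was that of Arntl. Bhlhe41, a repressor that binds E-boxes, had a log2 difference of -0.53 ± 0.37 (limma adjusted p = 0.572).

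The clock-controlled output genes outside the members were 9, all tested. Their list too was drawn up with earlier results known, so each p for them is only a description. In MC against DC limma called 0 of them higher and 3 lower, Tef, Usp2 and Tsc22d3, beside 1.37% of all tested genes called and 0.781% called lower, and the list's median log2 difference was -0.87. Tef, a PAR-bZIP factor like DBP, had 573, 1120, 503 and 488 normalized counts in DMC, 550.2, 497, 483 and 456 in MC, 896, 857, 1204 and 1382 in DC, and 539, 337, 739 and 457 in WT. MC lay below DC in every library, and Tef fell by 1.10 ± 0.26 on the log2 scale (limma adjusted p = 0.0477). Tef had entered an earlier clock score and was listed with earlier results known, so this p is only a description. Its call was lost in 14 of 29 alternative settings, among them each omission of an MC library or of DC library 2, 3 or 4, with adjusted p of 0.0796 to 0.138, and omissions of WT library 1 or 4 or DMC library 1 or 4, with 0.0529 to 0.0656.

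Usp2, a deubiquitinase with a strong daily rhythm in liver, had 167, 258, 111 and 86.8 normalized counts in DMC, 129, 93.7, 111 and 64.6 in MC, 155, 392, 342 and 497 in DC, and 248, 193, 282 and 170.2 in WT. It fell by 1.71 ± 0.36 on the log2 scale in MC against DC (limma adjusted p = 0.0296), with no overlap. The call was lost without any 1 of DC libraries 2 to 4 or of the MC libraries, at adjusted p of 0.05001 to 0.0962. It was also lost with the replicate number as a block in limma, at an adjusted p of 0.0610. Hlf, the remaining PAR-bZIP factor, had 28.2, 66.3, 16.98 and 23.8 in DMC, 12.3, 27.0, 22.2 and 17.4 in MC, 49.0, 35.7, 38.7 and 51.7 in DC, and 15.9, 12.7, 25.3 and 10.98 in WT. MC lay below DC in every library, and the log2 difference of -1.15 ± 0.38 did not pass the test (limma adjusted p = 0.171). Tspan4 had a log2 difference of -0.13 ± 0.21 (limma adjusted p = 0.850).

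In the other 5 comparisons and the interaction limma called 0 of the 13 loop genes and 0 of the 9 output genes. An unadjusted p under 0.05 was reached in DC against WT by 7 loop and 3 output genes, beside 11.7% of all tested genes, and in MC against WT by 3 and 2, beside 12.7%. In DMC against WT it was reached by 2 and 2, beside 12.5%, and in DMC against MC by 3 and 0, beside 5.57%. In DMC against DC it was reached by 4 and 3, beside 13.2%, and in the interaction by 3 and 0, beside 8.13%. There edgeR called 0 throughout, beside 0% to 0.781% of all tested genes, while DESeq2 called 2 loop genes and 1 output gene in DC against WT, beside 1.99% of all tested genes, 1 loop gene in DMC against DC, beside 2.43%, 1 loop gene in the interaction, beside 0.302%, and 0 otherwise. In DC against WT the 3 PAR-bZIP genes, Dbp among the members and Tef and Hlf outside them, had log2 differences of 1.52 ± 0.43, 1.09 ± 0.26 and 1.43 ± 0.38, and DC lay above WT in every library for each. Of all tested genes 3.72% were higher in DC without overlap, as were 5 of the 13 loop genes and 3 of the 9 output genes. These 3 genes were named with earlier results known, and nothing is read from their number.

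Per1 and Tsc22d3 also belong to a list of 9 genes known to respond to glucocorticoids. As with the other lists, earlier results were known when it was drawn up, and each p is only a description. Tsc22d3, which encodes the anti-inflammatory protein GILZ, had 1762, 2007, 948 and 1008 normalized counts in DMC, 977, 822, 1293 and 1089 in MC, 2508, 2038, 1914 and 2159 in DC, and 1522, 1691, 1814 and 1247 in WT, and it fell by 1.06 ± 0.22 on the log2 scale in MC against DC (limma adjusted p = 0.0272). Of the 9, limma called 4 lower and 0 higher in that comparison, beside 0.781% of all tested genes called lower and 0.591% higher. The other 2 were Fkbp5 (log2 difference -2.56 ± 0.56, limma adjusted p = 0.0354) and Zbtb16 (-2.91 ± 0.52, limma adjusted p = 0.0144), named after their values were seen. The rest of the list was not called. Its means in MC and DC were 138 and 286 normalized counts for Dusp1 and 1098 and 1821 for Klf9. They were close for Sgk1, at 2351 and 2405, and for Mt1, at 6392 and 6423. For Mt2 the MC mean was the higher, at 1527 and 1132. Zbtb16, a zinc finger repressor, had 1010, 1918, 328 and 269 normalized counts in DMC, 251, 192, 358 and 218 in MC, 916, 1979, 2588 and 2576 in DC, and 1018, 1136, 1514 and 560.0 in WT, so every MC library lay below every DC and WT library. The calls for Tsc22d3 and Fkbp5 were lost without DC library 2, 3 or 4 and without MC library 1, 2 or 4, and that for Zbtb16 without DC library 2 or 4 or MC library 2, at adjusted p of 0.0518 to 0.110. With the replicate number as a block in limma, the calls for Tsc22d3 and Fkbp5 were also lost, at adjusted p of 0.0561 and 0.0795. The mean log2 of the 8 genes other than Per1 was 9.60 to 10.8 in DMC, 9.24 to 10.3 in MC, 10.6 to 11.1 in DC and 10.4 to 10.7 in WT, with every MC library below every DC and WT library, and over the 16 libraries it had an r of -0.70 with the activator less E-box level. After centring on genotype means that r was -0.53. None of the 8 was at 0 in any library. The part of this level in the clock gene differences was not tested.

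Genes whose pattern was most like that of Arntl were ranked by Pearson r over the 16 libraries, on log2 values. The ranking held the 11328 other tested genes that averaged 50 normalized counts or more and had an established symbol. Clone-type symbols, such as Gm or AC followed by digits, and Rik names were left out. The 6 non-members with the highest r were Smad3 (0.94), Tspyl4 (0.92), Mtfp1 (0.91), Rassf3 (0.90), Lrig1 (0.89) and Dapk2 (0.88), and Npas2 ranked 6 from the top. Smad3, a transcription factor of TGF-beta signalling, ran from 513 to 1123 normalized counts in DMC, 837 to 956 in MC, 366 to 693 in DC and 521 to 1033 in WT, and its r with Arntl centred on genotype was 0.94. The 6 non-members most opposed to Arntl were Tnfrsf21 (-0.91), Hif3a (-0.91), Tef (-0.90), Por (-0.89), Klf13 (-0.88) and Zbtb16 (-0.88). From the bottom of the ranking Nr1d1, Dbp, Nr1d2 and Per3 took ranks 1 to 4, Per1 rank 9 and Per2 rank 39.

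Hif3a, a hypoxia-inducible factor subunit, ran from 34.0 to 211 normalized counts in DMC, 26.8 to 39.2 in MC, 73.5 to 231 in DC and 50.5 to 149 in WT, with MC below all DC and WT libraries. With Dbp the highest r among non-members were those of Tef (0.90), Klf13 (0.90), Cry2 (0.88), Hecw2 (0.88), Map3k6 (0.88) and Por (0.87), and Per3 and Nr1d1 ranked above them. Por, the electron donor of cytochrome P450 enzymes, is in the list of output genes and ran from 346 to 960.1 in DMC, 349 to 543 in MC, 690.5 to 1080 in DC and 461 to 750 in WT. Such rankings are descriptions over libraries that share genotype and scaling, and no p is given.

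The makeup of the tissue was set beside the clock genes with marker lists, none of whose genes was at 0 in any library. Over the 16 libraries the r of the mean log2 of each list with the activator less E-box level was 0.57 for 5 ductal genes, 0.42 for 7 acinar genes, 0.29 for 6 endocrine genes, -0.25 for 5 macrophage genes, -0.32 for 6 fibroblast genes, -0.36 for 7 lymphoid genes and -0.55 for 4 adipocyte genes. After centring on genotype means the order changed. It was then 0.45 for ductal, 0.41 for acinar, 0.28 for endocrine, -0.24 for macrophage, 0.05 for fibroblast, -0.57 for lymphoid and -0.35 for adipocyte genes. The ductal level was 8.55 to 8.96 in DMC, 8.89 to 9.45 in MC, 8.42 to 8.75 in DC and 7.75 to 9.33 in WT, so MC and DC did not overlap in it. The adipocyte level was 6.01 to 9.73 in DMC, 5.86 to 7.65 in MC, 7.53 to 9.27 in DC and 6.98 to 8.53 in WT. Summed, the ductal genes came to 6124 to 8519 normalized counts in DMC, 5124 to 7779 in MC, 4659 to 6211 in DC and 3588 to 7378 in WT, and the adipocyte genes to 457 to 3875 in DMC, 338 to 1066 in MC, 928 to 2693 in DC and 672 to 1774 in WT. The part of these cell types in the clock gene levels was not tested. Total reads had an r of -0.18 with the activator less E-box level. Without WT libraries 2 and 3, those with the most lymphoid transcripts, the difference in that level was -2.88 for DC against WT, 0.27 for MC against WT and -0.86 for DMC against WT.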

How the data were processed

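Total RNA of whole pancreas was made into strand-specific libraries, 16 in all, 4 animals per genotype, which the labels call independent biological replicates. Per the submitters' processing notes the authors used STAR 2.6.0b, the GRCm38 build and DESeq2. No source used here names the read counter or its strand setting. The deposited table holds a normalized count signal, gene counts divided by a size factor per library. Divided by a library's smallest step, 100% of its values were whole reads within 0.01, and these reads were used for the count tests.

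Genes with at least 10 normalized counts in at least 4 libraries were tested, 14220 in all. The log2 of value plus 1 was fitted with limma 3.58.1 (trend) in R 4.3.3 with a coefficient per genotype, all 16 libraries together, two-sided, with Benjamini-Hochberg adjustment over all tested genes and a threshold of 0.05. edgeR 4.0.16 and DESeq2 1.42.0 on recovered reads were alternatives, and the fits were tested on simulated data. Groups were read from the labels. Named outside the 10 genes were Daxx and Men1, 8 clock pathway genes, any other gene of the 2 pathway lists past the threshold, and the 6 most like and unlike genes by correlation. The members and lists were chosen with earlier results of these data known, and Tef and Nfil3 entered an earlier clock score. Gene positions came from the GENCODE mouse annotation on GRCm38, and promoters from RefSeq. Libraries with the same replicate number did not deviate together.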

Additional observations from a re-analysis of the deposited data

How the results depend on the processing

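Of 2020 alternative values of the members' log2 differences, 6 moved by 1 SD or more, and all 752 for differences of at least 1 kept their sign. Most of these could not move that far. Robust fitting, a filter, the replicate block and the fit of only the groups compared leave a difference of group means unchanged. So does leaving out a library of another group, and 1 left out of a group compared shifts it by less than 1 SD. These counts are therefore not a measure of stability. The count of members called by limma moved more. In DC against WT (0) library quality weights gave 2 and DESeq2 gave 3. In DMC against DC (1) it was 4 with weights, 3 with DESeq2, 0 with edgeR, 0 with only the groups compared, and 0 to 3 as each library was left out. In MC against DC (5) it was 8 with weights and 1 to 7 as each library was left out. With the replicate number as a block it was 3 in MC against DC and 0 in DMC against DC. In the other comparisons it was 0 in every setting run.

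The count of the other clock pathway genes, whose alternatives were chosen after seeing the data, was 4 in MC against DC. It was 9 with weights, 8 with DESeq2, 7 with only the groups compared, 0 to 6 as each library was left out, and 1 with the replicate block. In DC against WT (0) it was 1 with weights, 3 with DESeq2 and 1 without WT libraries 2 and 3. In DMC against DC (0) it was 3 with weights, 1 with DESeq2, 1 with only the groups compared and 1 without those WT libraries. In the interaction (0) it was 1 with DESeq2 and 1 without those WT libraries. As each library was left out it was 0 to 1 in DC against WT, MC against WT, DMC against DC and the interaction. Same-numbered libraries had correlations of -0.371 to 0.384 over 24 pairs, 11 above 0.1, and 4 of 16 libraries were closest to their own number.

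The difference in activator less E-box level for MC against DC was 3.71 without Clock and 2.99 to 3.36 as each library was left out. It was -2.67 to -1.76 for DC against WT, 0.48 to 1.39 for MC against WT and 1.496 to 2.80 for DMC against DC. The correlation of the levels was -0.909 as Spearman's rho and -0.961 to -0.945 as each library was left out. The causes of these shifts were not tested. With 4 animals per group and clock genes that varied within genotypes, a call often rested on 1 library, and genes under 33 reads over all libraries are not in the table.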
